A study of Mus musculus with 12 samples.

Results

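tRNA-Pro fragments are the small RNA reads assigned to the mature tRNAs that carry proline. They were taken by name from the annotation of all 12 libraries, and they comprise 3 isoacceptors, mature-tRNA-Pro-AGG, mature-tRNA-Pro-CGG and mature-tRNA-Pro-TGG, of 51 mature tRNA isoacceptors listed. Small RNA was sequenced from mature epididymal sperm of male C57BL/6J mice and from TM4 cells, a mouse cell line described as Sertoli cells. The 3 CD libraries came from mice on a control diet with 16% of calories from fat, and the 3 HFD libraries from mice on a diet labelled as 69% fat, for which the methods give a lower share. Per the labels both diets ran for 7 weeks from 4 weeks of age (the study elsewhere gives a later start), and every sperm library pooled sperm of 3 mice. TM4 cells gave 2 non-treated libraries (Ctrl), 2 libraries after 10 µM Compound C (CC), an AMPK inhibitor, for 12 h, and 2 libraries after plasmid overexpression of the angiogenin gene (Ang OE). The labels do not say whether TM4 replicates were separate cultures, so p-values there measure the spread between libraries, which may be technical. Small RNA libraries do not measure Ang mRNA, so the overexpression could not be checked here.

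A tRNA is transcribed from a short gene, folds into a cloverleaf, and receives the bases CCA at its 3′ end from a dedicated enzyme, because the CCA tail is what the amino acid is joined to. Cleavage yields fragments from the 5′ end (tRF5), from the 3′ end (tRF3) or from inside the molecule (other), and 5′ fragments of a few tRNAs are known as a large part of the RNA of mature mouse sperm. Angiogenin is a ribonuclease that cleaves tRNAs in the anticodon loop and can also cut the CCA tail. In the deposited annotation, a 3′ fragment is listed with or without the CCA tail, and both were counted here as tRF3 unless stated. A read that is neither a 5′ nor a 3′ fragment is called other.

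The genes show what the reads can and cannot tell apart. All 16 tRNA-Pro genes that RefSeq names were found in the mouse genome build GRCm39, 6 with the anticodon AGG, 3 with CGG and 7 with TGG. By the GENCODE annotation 12 were intergenic, 3 (n-TPagg3, n-TPcgg1 and n-TPtgg4) were intronic in lncRNA genes, and n-TPtgg2 overlapped an annotated exon of Myh8, a myosin heavy chain gene. Of the 16 genes, 13 carried the commonest sequence of their anticodon, which is 72 bases long. The 3 commonest sequences are shown because they are nearly the same molecule, with the anticodon (positions 33 to 35 from the 5′ end) in capitals, each from 1 gene on GRCm39: n-TPagg2 on the plus strand of chr1:165469203-165469274, n-TPcgg2 on the minus strand of chr1:165469840-165469911 and n-TPtgg7 on the plus strand of chr3:51265775-51265846.
mature-tRNA-Pro-AGG: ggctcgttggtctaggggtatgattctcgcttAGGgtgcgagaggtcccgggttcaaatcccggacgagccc
mature-tRNA-Pro-CGG: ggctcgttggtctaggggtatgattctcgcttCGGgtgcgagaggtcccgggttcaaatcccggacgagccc
mature-tRNA-Pro-TGG: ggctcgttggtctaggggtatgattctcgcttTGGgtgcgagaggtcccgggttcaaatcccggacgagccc

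These sequences differ at 1 base, the first of the anticodon, as A33C between AGG and CGG and as A33T between AGG and TGG. The last 20 bases, ttcaaatcccggacgagccc, were identical in 14 of the 16 genes, and the first 32 bases in 13. A fragment of the commonest sequences that does not reach position 33 therefore has no single isoacceptor of origin. The 3 genes that differ outside the anticodon, n-TPtgg2, n-TPtgg3 and n-TPtgg8, all carry TGG. The counts stood in fixed ratios. Among tRF3, the reads assigned to AGG were 2.0 times those assigned to CGG in all 12 libraries, and those assigned to TGG were 1.67 times CGG. The genes with the shared last 20 bases stand in the same ratios, 6 AGG, 5 TGG and 3 CGG. The 3 tRF3 values therefore could not be read as separate measurements, and the isoacceptors were added for the results below, with the single isoacceptors counted where calls are given. All fragments of mature-tRNA-Pro-AGG together were at 495.9, 937 and 395 RPM in CD and at 829, 1120.2 and 838 RPM in HFD, those of mature-tRNA-Pro-TGG at 417, 785 and 333 RPM and at 697, 939 and 705 RPM, and those of mature-tRNA-Pro-CGG at 255, 475.5 and 203 RPM and at 420.4, 567 and 425 RPM (RPM are reads per 1000000 clean reads without rRNA). In TM4 cells they were at 235 to 473 RPM for AGG, 198 to 394 RPM for TGG and 125 to 244 RPM for CGG. The order AGG, TGG, CGG held in each of the 12 libraries. Among tRF5, AGG reads were 1.72 to 1.93 times CGG reads in sperm and 1.78 to 1.87 times in TM4 cells, and among other fragments 1.90 to 1.95 times and 1.77 to 1.88 times.

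Sperm libraries held 23030602 to 28018533 clean reads without rRNA and TM4 libraries 47610967 to 59623558. Between 25805 and 60475 reads per library were tRNA-Pro, which was 0.562% to 2.04% of mature tRNA reads in sperm and 1.57% to 4.16% in TM4 cells. Wilson 95% intervals of the shares of tRNA-Pro reads by class were at most ±0.61 percentage points, and they cover counting error only. CD replicate 2 stood apart among the CD libraries, with 10.8% of its reads from mature tRNAs against 15.4% and 16.6%. The sperm libraries held miRNAs of other cells. The summed level of 5 epithelial miRNAs was 4480 to 7580 RPM there, and that of 4 red blood cell miRNAs 12600 to 25300 RPM, beside 1970 to 5370 RPM for 12 testis germ cell miRNAs. In TM4 cells mir-202, the Sertoli cell miRNA, was between 0 and 0.11 RPM, against 2.57 to 28.8 RPM in sperm. The muscle and red blood cell lists were present in TM4 cells too, at 29800 to 79800 RPM and 1090 to 1640 RPM. Sperm libraries held 15400 to 29700 RPM of the muscle list.

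The fragment classes of tRNA-Pro differed from those of the other tRNAs in the same libraries. In sperm, 50.8% ± 2.84 (SD, n = 6) of tRNA-Pro reads were tRF3 against 1.85% ± 0.646 of all other mature tRNA reads, and tRF5 made up 1.49% ± 0.478 against 72.9% ± 5.61. Other fragments made up 47.7% ± 2.57 of tRNA-Pro reads and 25.3% ± 5.27 of the rest. Each of the 3 differences had the same direction in 6 of 6 sperm libraries (exact 2-sided sign-flip permutation test, p = 0.03125, the smallest it can give; adjusted p = 0.03125). In TM4 cells tRF3 was 52.7% ± 9.25 of tRNA-Pro reads and 26.3% ± 15.4 of the others, and tRF5 was 1.06% ± 0.585 against 37.6% ± 23.0, both in the same direction in 6 of 6 libraries (exact sign-flip p = 0.03125, adjusted p = 0.0469). The tRF3 excess in TM4 cells, 26.4 percentage points, was in tailed fragments, since it was 0.145 points where these were counted as other. Other fragments of tRNA-Pro were higher in 4 of 6 TM4 libraries (46.2% ± 8.84 against 36.1% ± 7.68, exact p = 0.25). Across the 6 TM4 libraries the tRF5 share ran from 7.45% to 64.1% for the remaining tRNAs and from 0.270% to 1.75% for tRNA-Pro. These comparisons pooled the reads of all other tRNAs. By its median tRF5 share, tRNA-Pro ranked 14 of 22 tRNA families in sperm and 13 of 22 in TM4 cells. A low tRF5 share was thus not particular to tRNA-Pro.

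**Figure D1:**
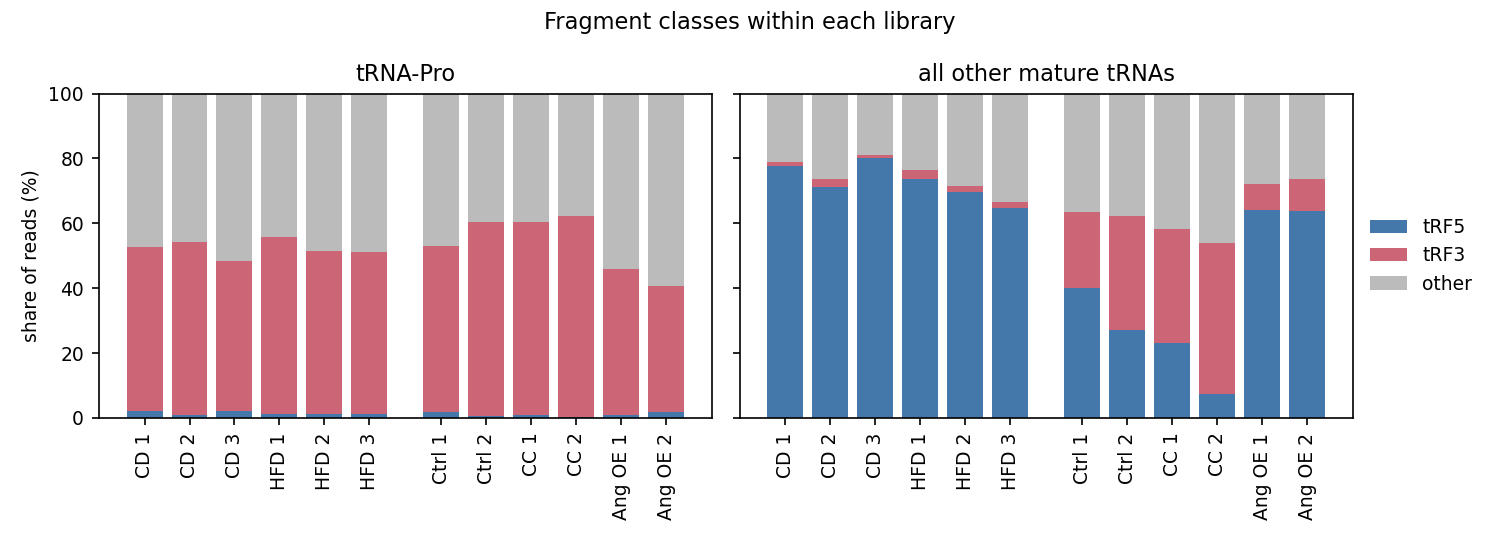
Share of reads (vertical axis, percent) in each fragment class, 1 bar per library, for tRNA-Pro on the left and all other mature tRNAs on the right. tRF3 and other fragments take nearly all of each tRNA-Pro bar, with tRF5 at most 2.10%, whereas tRF5 takes 64.7% to 80.2% of the other tRNAs in sperm.

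Within sperm, tRNA-Pro was a large part of the 3′ fragments of all tRNAs. It supplied 22.0% to 32.5% of all tRF3 reads in the 6 sperm libraries, though it supplied only 0.0147% to 0.0307% of the tRF5 reads and 1.52% to 3.49% of the other fragments. In TM4 cells it supplied 4.35% to 10.2% of tRF3 reads. By the median share of tRF3 among a family's own reads, tRNA-Pro ranked 1 of 22 tRNA families in sperm and 8 of 22 in TM4 cells. tRNA-Phe and tRNA-Thr followed in sperm with 36.0% and 34.9%.

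The CCA tail was mostly missing from these fragments in sperm and almost always present in TM4 cells. Of tRNA-Pro tRF3 reads, 81.8%, 89.9% and 78.0% in CD replicates 1 to 3 lacked the tail, and 87.6%, 90.3% and 83.8% in HFD replicates 1 to 3. In the TM4 libraries the share was 0.809% and 0.572% in Ctrl, 0.407% and 0.390% in CC, and 0.189% and 0.295% in Ang OE. The lowest sperm library was thus far above the highest TM4 library, and Wilson intervals were at most ±0.741 percentage points wide on either side. Among the other tRNAs of the same sperm libraries, 18.6% to 46.3% of tRF3 reads lacked the tail, so that tRNA-Pro was higher by 57.2 ± 6.85 percentage points in 6 of 6 libraries (exact sign-flip p = 0.03125). In TM4 cells the shares were 0.444% ± 0.219 for tRNA-Pro and 0.420% ± 0.144 for the others (exact p = 0.844). This test was chosen after the values were seen.

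Of all tailless tRF3 reads in sperm, 48.5% to 58.4% were tRNA-Pro, against 4.77% to 8.36% of the reads with a tail. tRNA-Pro ranked 1 of 22 families in sperm by the median share of tailless reads, 85.7%, ahead of tRNA-Thr with 72.2% and tRNA-Gln with 70.6%. It ranked 13 of 22 in TM4 cells. Some families with a high tRF3 share kept the tail in sperm, as tRNA-Phe did with a tailless share of 0.570% and tRNA-Ala with 1.75%.

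**Figure D2:**
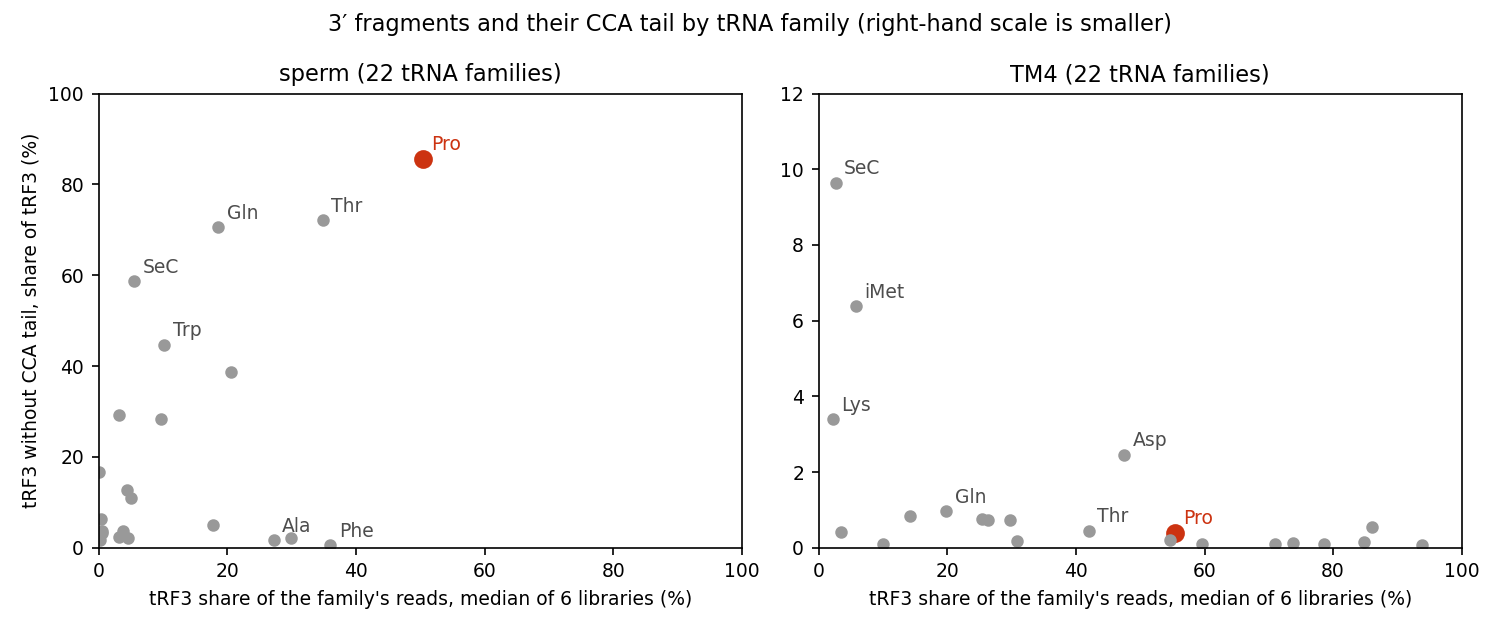
Each point is a tRNA family, with the median tRF3 share of its reads on the horizontal axis and the median share of tRF3 reads without the CCA tail on the vertical axis, over 6 sperm libraries (left) and 6 TM4 libraries (right, with a smaller vertical scale). In sperm tRNA-Pro lies at the upper right, at 50.5% and 85.7%, while in TM4 cells it lies near the floor at 0.399%.

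The 3′ end of tRNA-Pro is also known as a primer. Retroviruses start reverse transcription on a host tRNA whose 3′ end, CCA included, pairs with the viral genome, and murine leukaemia viruses and many endogenous relatives use tRNA-Pro. The last 20 bases shown above occurred at 14 places in GRCm39, on the 20 chromosomes searched (chromosome 18 was left out), and CCA followed at 0 of them. The last 16 bases occurred at 89 places on both strands, and at 64 of them, on 18 chromosomes, CCA followed in the genome itself. None of these 64 was a tRNA-Pro gene, and 16 were on the X chromosome. The last 15 bases with CCA occurred at 171 places. CCA is not encoded in the tRNA genes, yet the annotation counted 99.6% to 99.9% of CCA-tailed tRNA-Pro reads in sperm libraries and 99.95% to 99.99% in TM4 libraries as matching the genome. By this share over all sperm libraries tRNA-Pro ranked 2 of 22 families (99.8%), after tRNA-Phe. Per the methods the annotation allowed a mismatch and the files used mm10, whereas the places above were exact matches in GRCm39. They are therefore not the full set that the annotation could match. The files give no read lengths or sequences, and reads from these places cannot be told apart from reads of the tRNA here.

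HFD against CD sperm addressed whether the diet changes tRNA fragments. tRF3 levels of tRNA-Pro were 589.5, 1169 and 432.5 RPM in CD replicates 1 to 3, and 1062, 1324 and 981 RPM in HFD replicates 1 to 3. Other fragments were at 554, 1006 and 479 RPM in CD and at 858, 1272 and 963 RPM in HFD. For both classes CD replicate 2 lay among the HFD libraries and CD replicates 1 and 3 lay below all of them. tRF5 was a minor class, at 24.5, 23.1 and 19.5 RPM in CD and at 25.9, 29.6 and 24.7 RPM in HFD.

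None of the 9 tRNA-Pro tRFs, 3 isoacceptors in 3 classes, passed the diet threshold of an unadjusted p under 0.05 with a fold change over 1.5, which 16.2% of the 142 tested tRFs passed, all of them higher in HFD. By edgeR 0 tRFs of any tRNA passed an adjusted p of 0.05 and 23 had an unadjusted p under 0.05, and by DESeq2 0 and 29. With isoacceptors added, tRF3 had a log2 fold change of 0.62 ± 0.33 (SE; edgeR quasi-likelihood test, adjusted p = 0.213), other fragments 0.60 ± 0.33 (edgeR adjusted p = 0.213) and tRF5 0.26 ± 0.34 (edgeR adjusted p = 0.542). The median over 64 family classes was 0.48, so tRF3 stood 0.14 above it and tRF5 0.22 below. TMM normalization moved that median to -0.06, and the log2 fold changes of tRNA-Pro to 0.13 for tRF3, 0.08 for other fragments and -0.30 for tRF5. The result for tRF3 and other fragments rested on CD replicate 2. Without it 6 of 9 tRNA-Pro tRFs passed, as did 54 of all 142, and the log2 fold changes were 1.14 for tRF3 (edgeR adjusted p = 0.00834) and 1.00 for other fragments (edgeR adjusted p = 0.0176).

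With the tail taken apart, a division chosen after the values were seen, the tailed tRF3 did not overlap between the diets in RPM, though under TMM normalization its log2 fold change was -0.17. It was at 107.5, 118 and 95.1 RPM in CD and at 132, 129 and 159 RPM in HFD, while the tailless form overlapped, at 482, 1051 and 337 RPM in CD and at 930, 1196 and 822 RPM in HFD. Thus 2 of the 4 classes, tailed tRF3 and tRF5, had no overlap between the diets, against 27.4% of all 84 family classes. The gap for tRF5 was narrow, from 24.5 to 24.7 RPM. Neither was called by edgeR, with log2 fold changes of 0.39 ± 0.33 for tailed tRF3 and 0.66 ± 0.36 for tailless tRF3. The latter became 1.26 without CD replicate 2 (edgeR adjusted p = 0.00291).

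All tRNA-Pro fragments together reached 1432 ± 673 RPM (SD, n = 3) in CD and 2180 ± 386 RPM in HFD (exact 2-sided permutation test, p = 0.3, smallest possible p 0.1; adjusted p = 0.4). Their share of mature tRNA reads was 1.12% ± 0.805 in CD and 1.61% ± 0.223 in HFD (exact p = 0.4, adjusted p = 0.4). The log2 ratio of these shares was 0.52, or 1.28 without CD replicate 2 and 0.20 without CD replicate 3, and that of the RPM was 0.61, or 1.05 and 0.37. The class shares of tRNA-Pro reads differed by less than the larger SD of the groups. tRF3 was 50.03% ± 3.401 in CD and 51.6% ± 2.58 in HFD (exact p = 0.6), tRF5 was 1.75% ± 0.604 and 1.24% ± 0.102 (exact p = 0.4), and other fragments were 48.2% ± 2.94 and 47.1% ± 2.66 (exact p = 0.7). All 3 adjusted p-values were 0.7. Among isoacceptors, whose shares moved by at most 0.132 percentage points, CGG did not overlap and took 21.7% ± 0.0916 of reads in CD and 21.6% ± 0.00839 in HFD (exact p = 0.1, adjusted p = 0.3), AGG 42.5% and 42.6% (exact p = 0.3) and TGG 35.8% in both (exact p = 0.2). The tailless share of tRF3 was 83.2% ± 6.06 and 87.2% ± 3.26 (exact p = 0.4). In these libraries the 3 white blood cell miRNAs summed to 279 to 333 RPM in CD and 419 to 712 RPM in HFD, and rRNA took 16.5% to 25.2% and 24.7% to 32.9% of clean reads. Their part in the diet values was not tested.

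**Figure D3:**
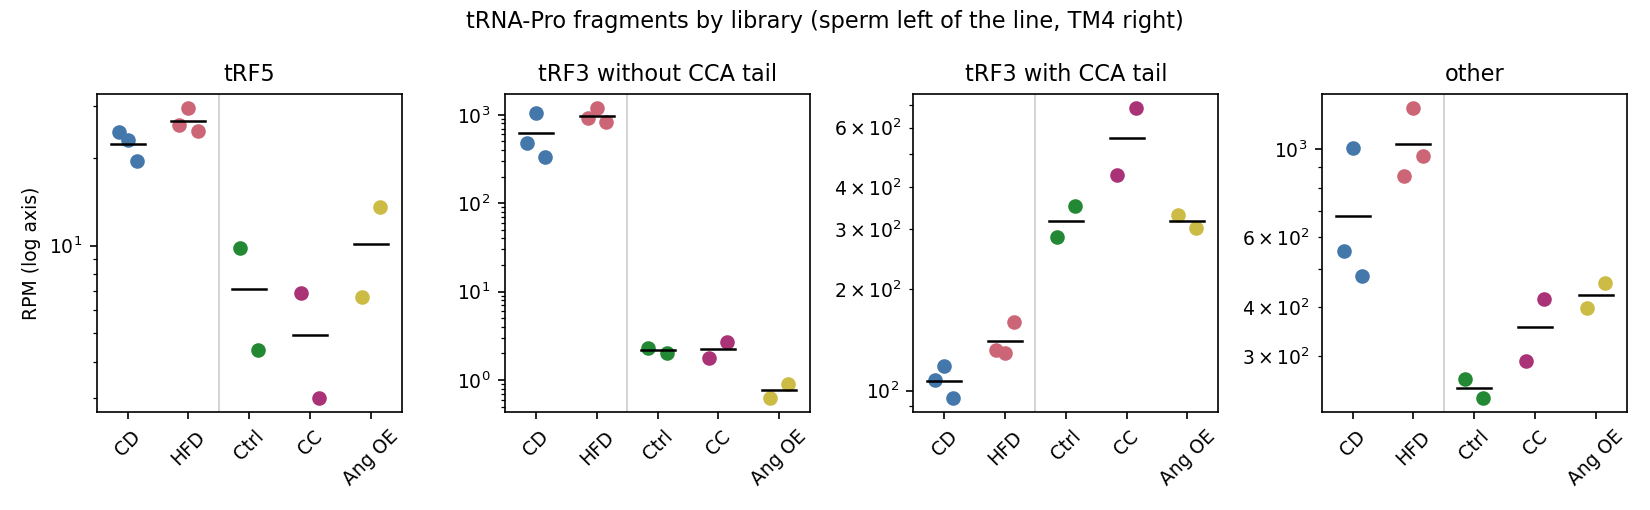
tRNA-Pro fragments in RPM (log axes that differ between panels), 1 point per library with the group mean as a line. In sperm (left of the line) tRF3 without the CCA tail is between 337 and 1196 RPM and in TM4 cells it is at most 2.69 RPM, while tRF3 with the tail is between 95.1 and 159 RPM in sperm and between 284 and 686 RPM in TM4 cells.

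CC against Ctrl asked what inhibition of AMPK does in TM4 cells. tRF3 of tRNA-Pro was at 286 and 355 RPM in Ctrl and at 437 and 689 RPM in CC, with both CC libraries above both Ctrl libraries. Other fragments were at 262 and 236 RPM in Ctrl and at 291 and 419 RPM in CC, again without overlap. tRF5 overlapped, at 9.81 and 4.38 RPM in Ctrl and at 6.88 and 3.00 RPM in CC. None of the 9 tRNA-Pro tRFs passed an adjusted p under 0.05 with a fold change over 2, against 0.699% of 143 tRFs, which is 1 tRF. The 3 tRF3 isoacceptors had unadjusted edgeR p-values of 0.0202 to 0.0304. Without CC replicate 1, the library with the lower tRF3, 3 of 9 were called, as were 26 of all 143.

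With isoacceptors added, tRF3 had a log2 fold change of 0.81 ± 0.30 for CC (edgeR adjusted p = 0.188), which was 0.43 above the median of 66 family classes and ranked 3 of 66. The tRF3 of all 21 other families was also higher in CC, with a median log2 fold change of 0.61. Other fragments of tRNA-Pro had 0.51 ± 0.27 (edgeR adjusted p = 0.279) and its tRF5 -0.52 ± 0.56 (edgeR adjusted p = 0.541). With ComBat-seq, taking the replicate number as batch though no label names it as such, the 3 tRF3 isoacceptors had edgeR adjusted p-values of 0.0230 to 0.0286. An adjusted p under 0.05 was reached there by 50 of all 143 tRFs. Of the 9 tRNA-Pro tRFs 0 were called, against 13 of all 143, because none reached the fold change of 2. TMM normalization gave 0.46 for tRF3 and 0.16 for other fragments. Other fragments had 0.23 without CC replicate 2 and 0.75 without CC replicate 1, and tRF3 0.45 and 1.103. The tRF5 value turned to 0.18 without Ctrl replicate 1. The tailed form carried the tRF3 difference, at 284 and 353 RPM in Ctrl and 436 and 686 RPM in CC, while the tailless form was at 2.32 and 2.03 RPM and at 1.78 and 2.69 RPM. Of the 4 classes with the tail apart, 2 had no overlap between CC and Ctrl, against 61.4% of 83 family classes. Of the marker miRNAs, the 4 of red blood cells summed to 1090 to 1150 RPM in CC and 1610 to 1640 RPM in Ctrl, and the 4 of mesenchymal cells to 9190 to 9830 RPM and 10300 to 11600 RPM. Those of white blood cells were at 1.74 to 1.82 RPM in CC and 2.28 to 2.42 RPM in Ctrl. Those of testis germ cells were at 565 to 610 RPM and 613 to 627 RPM. Their part in the CC values was not tested.

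Ang OE against Ctrl compared plasmid overexpression of the angiogenin gene with non-treated TM4 cells. No group with an empty plasmid was listed, so the plasmid and angiogenin cannot be told apart. The paper also adjusted its cell line data for differences in how samples were prepared. tRF3 of tRNA-Pro was at 331 and 304 RPM in Ang OE, inside the Ctrl range of 286 to 355 RPM. Other fragments were at 398 and 461 RPM, above both Ctrl libraries with 262 and 236 RPM. tRF5 was at 6.66 and 13.5 RPM, around the Ctrl values of 9.81 and 4.38 RPM. None of the 9 tRNA-Pro tRFs was called, against 9.79% of 143. The 3 isoacceptors of other fragments had unadjusted edgeR p-values of 0.0166 to 0.0239 and edgeR adjusted p-values of 0.0763 to 0.0833.

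With isoacceptors added, other fragments of tRNA-Pro had a log2 fold change of 0.79 ± 0.27 for Ang OE (edgeR adjusted p = 0.0689), tRF3 -0.01 ± 0.29 (edgeR adjusted p = 0.963) and tRF5 0.51 ± 0.56 (edgeR adjusted p = 0.490). Leaving out 1 library took tRF5 from -0.09, without Ang OE replicate 2, to 1.21, without Ctrl replicate 1, whereas tRF3 had -0.16 when Ctrl replicate 1 was left out and 0.15 when Ctrl replicate 2 was. ComBat-seq took the replicate number as batch, which no label names as such, and Ang OE and Ctrl did not deviate together by it (correlation -0.223). After it 63 of all 143 tRFs had an edgeR adjusted p under 0.05, against 15 in the main fit. Other fragments passed an adjusted p of 0.05 under TMM normalization (log2 fold change 0.79, edgeR adjusted p = 0.0200), and their isoacceptors did so with ComBat-seq (edgeR adjusted p = 0.0130 to 0.0164), but not the fold change of 2. They did not pass without either Ctrl or either Ang OE library (edgeR adjusted p = 0.150 to 0.417). The median over the 66 family classes was 0.16. The share of tRF3 within tRNA-Pro reads was 42.03% ± 4.17 (SD, n = 2) in Ang OE and 55.5% ± 5.92 in Ctrl. That of other fragments was 56.6% ± 3.59 against 43.3% ± 5.20, with no overlap between the groups in either. The remaining tRNAs had no overlap in either share as well. Their tRF3 share was 8.84% ± 1.11 in Ang OE against 29.3% ± 8.49 in Ctrl. Their share of other fragments went the opposite way from tRNA-Pro, at 27.2% ± 0.996 against 37.1% ± 0.802. Groups of 2 libraries cannot reach a p below 0.333 in an exact permutation test, so these shares were not tested.

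The rare tailless tRF3 fell in Ang OE. It had 31 and 49 reads, at 0.626 and 0.899 RPM, against 116 and 121 reads, at 2.32 and 2.03 RPM, in Ctrl, a log2 fold change of -1.50 ± 0.38 (edgeR adjusted p = 0.0290). This call, 1 of 4 tRNA-Pro classes against 21.7% of 83 family classes, came from the division chosen after the values were seen, and it was lost without either Ang OE library (edgeR adjusted p = 0.145 and 0.0952) or without Ctrl replicate 1 (0.0532). Tailed tRF3 had a log2 fold change of -0.01 ± 0.31. Tailless tRF3 and other fragments did not overlap between Ang OE and Ctrl, against 81.9% of family classes. Of the marker miRNAs, the 6 of muscle summed to 61700 to 79800 RPM in Ang OE and 29800 to 31200 RPM in Ctrl, and the 12 of testis germ cells to 1210 to 1350 RPM and 613 to 627 RPM. Those of red blood cells were lower in Ang OE, at 1090 to 1160 RPM against 1610 to 1640 RPM, as were those of white blood cells, at 1.45 to 1.74 RPM against 2.28 to 2.42 RPM. Their part in the Ang OE values was not tested.

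Ang OE against CC compared both manipulations in the same model. tRF3 of tRNA-Pro was lower in Ang OE, at 331 and 304 RPM against 437 and 689 RPM in CC, with a log2 fold change of -0.83 ± 0.30 (edgeR adjusted p = 0.0485) that did not reach the fold change of 2. The adjusted p was over 0.05 under TMM normalization (log2 fold change -0.46, edgeR adjusted p = 0.139) and without each of the TM4 libraries other than CC replicate 1 (edgeR adjusted p = 0.0822 to 0.204). Hence 0 of 9 tRNA-Pro tRFs were called, against 38.5% of 143. An edgeR adjusted p under 0.05 was reached by 2 of 9, the CGG and TGG forms of tRF3 (0.0389 and 0.0486), and by 74 of all 143. Without CC replicate 1, 5 of 9 were called, as were 72 of all 143. For comparison, the 46 tRF3 of the other tRNAs had a median log2 fold change of -1.33 and 29 of them were called lower. tRF5 of tRNA-Pro had a log2 fold change of 1.03 ± 0.56 (edgeR adjusted p = 0.153) and other fragments 0.27 ± 0.27 (edgeR adjusted p = 0.410), against a median of -0.30 over 66 family classes. Under TMM normalization other fragments had 0.62 (edgeR adjusted p = 0.0209), short of the fold change of 2. Leaving out 1 library gave 0.43 to 1.75 for tRF5 (lowest without Ang OE replicate 2, highest without CC replicate 1) and 0.035 to 0.56 for other fragments (lowest without CC replicate 1, highest without CC replicate 2).

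With the tail apart, tailless tRF3 fell by 1.54 ± 0.38 on the log2 scale in Ang OE against CC (edgeR adjusted p = 0.0116), 1 of 4 classes called against 41% of 83 family classes. The call was lost without Ang OE replicate 1 (edgeR adjusted p = 0.0893). Tailed tRF3 had a log2 fold change of -0.82 ± 0.31 (edgeR adjusted p = 0.0536), and these 2 classes had no overlap, against 77.1% of family classes. The 6 muscle miRNAs summed to 61700 to 79800 RPM in Ang OE and 30300 to 42700 RPM in CC, and the 12 of testis germ cells to 1210 to 1350 RPM and 565 to 610 RPM. Those of mesenchymal cells were at 10200 to 11200 RPM and 9190 to 9830 RPM. Their part in these differences was not tested.

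CD sperm against Ctrl TM4 cells compared the sources. All 9 tRNA-Pro tRFs were called higher in sperm, against 79% of 143 tRFs called in either direction, 73 higher and 40 lower. With isoacceptors added, the log2 fold change was 1.66 ± 0.39 for tRF5 (edgeR adjusted p = 6.61e-05), 1.19 ± 0.37 for tRF3 (edgeR adjusted p = 0.00181) and 1.45 ± 0.37 for other fragments (edgeR adjusted p = 0.000187). These values lay close to the median of 1.28 over 66 family classes, and under TMM normalization, which moved that median to 0.22, 0 of 9 were called, against 93 of all 143. By contrast, the other tRNAs had 5 of 46 tRF3 called higher and 33 called lower. Without CD replicate 2, 5 of 9 tRNA-Pro tRFs were called, as were 105 of all 141.

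Taking the tail apart divided tRF3 into opposite directions, in other tRNAs as well as in tRNA-Pro. Of the other families, 12 of 20 tailless classes were called higher and 2 lower, and 2 of 21 tailed classes higher and 12 lower. Their median log2 fold changes were 2.38 and -1.43. Tailless tRF3 of tRNA-Pro was higher in CD sperm, with a log2 fold change of 8.16 ± 0.53 (edgeR adjusted p = 2.76e-37). It was at 2.03 to 2.32 RPM in Ctrl and at 337 to 1051 RPM in CD, and it ranked 3 of 87 family classes. Tailed tRF3 was lower with -1.57 ± 0.34 (edgeR adjusted p = 1.35e-05), at 95.1 to 118 RPM against 284 to 353 RPM. Under TMM normalization these were 6.31 and -3.34. All 4 classes were called, 3 higher and 1 lower, against 73.6% of 87, though tRF5 and other fragments were not higher under TMM normalization with these classes (-0.11 and -0.37). Fewer cells of a type and less RNA per cell cannot be told apart in such bulk samples, and source and preparation cannot be told apart either, since sperm and TM4 libraries share no group.

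**Figure D4:**
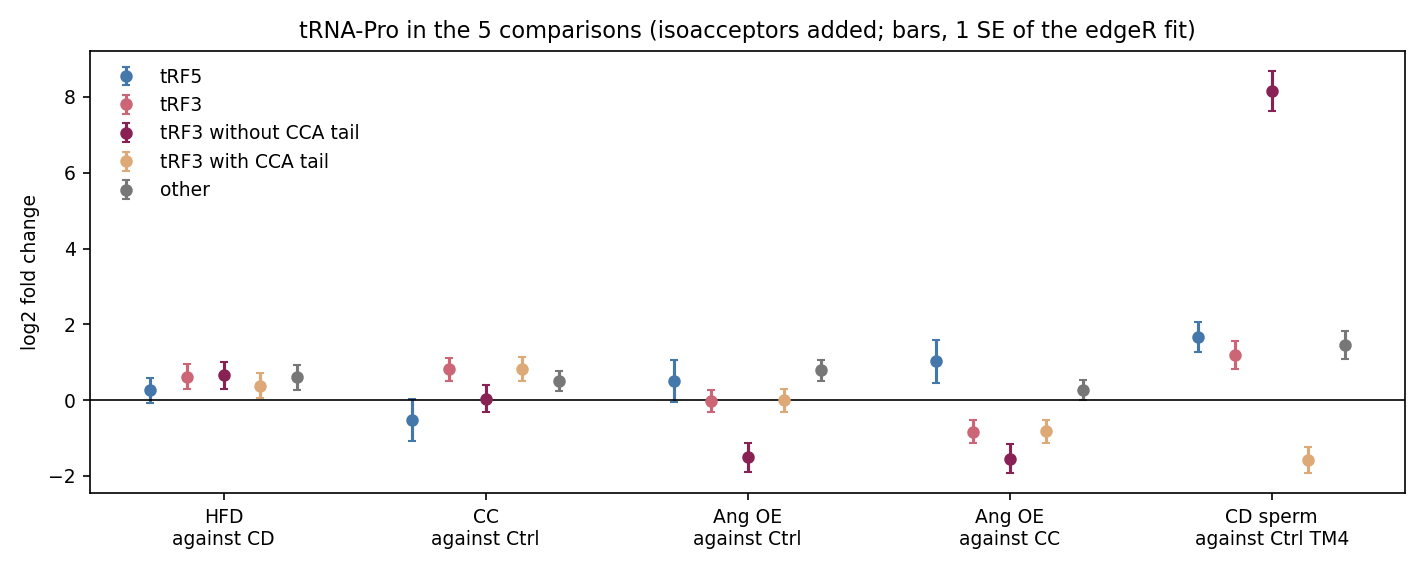
log2 fold changes of tRNA-Pro by fragment class (isoacceptors added) in the 5 comparisons, with bars of 1 SE of the edgeR fit. Tailless tRF3 stands at 8.16 in CD sperm against Ctrl TM4 cells and at -1.50 and -1.54 for Ang OE against Ctrl and CC, and the diet values lie between 0.26 and 0.66.

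The tRNA families whose level, log2(RPM + 1), over the 12 libraries, centred within sperm and within TM4 cells, was most like that of tRNA-Pro were tRNA-Thr, tRNA-Arg and tRNA-Trp for tRF3 (Pearson r = 0.903, 0.890 and 0.860). They were tRNA-Thr, tRNA-Tyr and tRNA-Arg for other fragments (0.913, 0.902 and 0.856) and tRNA-Lys, tRNA-Arg and tRNA-Thr for tRF5 (0.798, 0.794 and 0.794). The libraries share their depth and preparation, and these values only describe likeness. The mitochondrial tRNA-Pro, a product of another genome, gave 15.4 to 28.1 RPM in sperm and 1.71 to 2.78 RPM in TM4 cells. In sperm 85.6% to 90.6% of it was other fragments. A precursor tRNA-Pro was listed in 0 of the 12 libraries.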

How the data were processed

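Per the methods, the authors trimmed the reads and annotated them with SPORTS1.1 (genome build mm10, with FastQC 0.12.0 and Trimmomatic 0.40, in the submitters' processing notes). The deposited values are estimated counts per class and subclass, not normalized, in which a read that matches several subclasses is divided among them. Rows with and without a genome match were added. RPM are reads per 1000000 clean reads without rRNA. Classes were compared with the edgeR 4.0.16 quasi-likelihood test in R 4.3.3 on rounded counts of every tRF that had 10 or more reads in 3 or more libraries (2 or more where TM4 cells were fitted), with that library size, no further scaling, and Benjamini-Hochberg adjustment over all tested tRFs; TM4 groups shared 1 model of 6 libraries. Single values were compared by exact permutation tests. For calls, HFD against CD had to pass 0.05 unadjusted and 1.5-fold, and the other comparisons 0.05 adjusted and 2-fold. Features were named by a rule: all 9 tRNA-Pro tRFs, the tailed part of tRF3, and the 3 most similar families per class. The members and lists were chosen with earlier results of these data known. The tests were checked on simulated counts. Genes were located by structure in GRCm39 and named from the RefSeq table (GRCm38.p6) by anticodon, chromosome and nearest position. Alternatives were DESeq2 1.42.0, TMM, ComBat-seq (sva 3.50.0), other library sizes, filters and classes, a replicate block, and each library left out.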

Additional observations from a re-analysis of the deposited data

Results flagged for a closer look

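The effects of Ang OE and of CC, both relative to Ctrl, differed for tRNA-Pro tRF3 in the direct contrast by -0.8264 on the log2 scale (SE 0.30, edgeR adjusted p = 0.0485, or 0.139 under TMM normalization). For the tailless part of tRF3 they differed by -1.5439 (SE 0.38, edgeR adjusted p = 0.0116), a value that rests on 31 and 49 reads in Ang OE. The mitochondrial tRNA-Pro, which no comparison used, had tRF5 at 0.464 and 0.385 RPM in Ang OE, above 0.340 and 0.319 RPM in Ctrl, with a mean of 0.42466 RPM from 23 and 21 reads.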

How the results depend on the processing

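Under the alternatives, 288 values of the main results and 98 values of single features kept their direction and call, or stayed within 1.5 times a count of calls or within 1 SD of a share, 10 and 13 changed sign, and the remainder changed call or moved further. Calls in CD sperm against Ctrl were 6 with all clean reads as library size (107 of all 143). Exact sign-flip tests over the 5 libraries left when 1 was left out could not go below p = 0.0625. The replicate block, with numbers whose samples did not all deviate together (correlations 0.0179, 0.207 and 0.200 for the 3 CD and HFD pairs, 0.764 for Ctrl and CC, -0.223 and -0.258 for Ang OE with Ctrl and CC), gave 5 of 9 calls for HFD (28 of all 142, against 23 without it) and raised the HFD log2 fold change of other fragments to 0.66 and of tRF3 to 0.74. With the block, Ang OE against Ctrl moved to 0.0069 for tRF3 and 0.014 for its tailed part, and the crossed block, added after the data were seen, gave 2 calls in Ang OE against CC (55 of all 142), both of tRF5 (edgeR adjusted p = 0.0144 to 0.0281 over the 3 tRF5 isoacceptors), and edgeR adjusted p-values of 0.242 to 0.307 for the tRF3 isoacceptors. A block in Ctrl and CC alone, also added then, gave edgeR adjusted p-values of 0.0237 to 0.0269 for the tRF3 isoacceptors and 0 calls (13 of all 141). Under it 48 of all 141 tRFs had an edgeR adjusted p under 0.05. With tailed fragments as a class of their own, 2 tRNA-Pro tRFs were called for Ang OE against Ctrl (19 of all 173) and 3 against CC (66 of all 173).

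TMM gave -0.30 for tRF5 and -0.17 for tailed tRF3 in HFD, -0.26 for tailless tRF3 in CC and 0.026 for tailed tRF3 in Ang OE against Ctrl. For CD sperm against Ctrl it gave 0 calls (93 of all 143), as did DESeq2 with its own size factors (97 of all 143). TMM gave 0.30, 0.057 and 0.51 in that comparison for other fragments, tRF3 and tRF5. All clean reads as library size gave 0.91 for tRF3 there, and 0.0015 for tRF3 and 0.0079 for tailed tRF3 in Ang OE against Ctrl.

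Leaving out 1 library at a time gave 0 to 6 calls for HFD, 0 to 3 for CC, 0 to 5 for Ang OE against CC and 5 to 9 for CD sperm against Ctrl. In HFD, the log2 fold changes ran from 0.40 to 1.00 for other fragments and from 0.35 to 1.14 for tRF3. In CC they ran from 0.45 to 1.103 for tRF3, from -1.24 to 0.18 for tRF5 and from -0.29 to 0.31 for tailless tRF3 (-0.05 without Ctrl replicate 2). In Ang OE against Ctrl they ran from -0.16 to 0.15 for tRF3, from -0.089 to 1.21 for tRF5 and from -0.16 to 0.16 for tailed tRF3 (0.05 without Ang OE replicate 2). They ran from -1.12 to -0.46 for tRF3 in Ang OE against CC and from 0.67 to 1.46 in CD sperm against Ctrl. A lone remaining TM4 library was assumed to vary like the other groups.

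The HFD minus CD difference ran from -0.21 to 3.17 percentage points for the tRF3 share and from -2.31 to 0.55 for other fragments (0.45 without HFD replicate 1). The tailless share of tRNA-Pro minus that of other tRNAs in TM4 cells was -0.80 percentage points in genome-matched reads (exact sign-flip p = 0.03125). It was -0.015, -0.016 and -0.00096 without Ctrl replicate 1, Ctrl replicate 2 and CC replicate 2, with 0.108 as the highest value when 1 library was left out. Other fragments in TM4 cells exceeded those of other tRNAs by 36.4 points where tailed fragments were counted as other (exact sign-flip p = 0.03125). The cause was not tested for any of these changes. With 2 or 3 libraries a group, and 31 to 128 tailless reads in TM4 libraries, small differences could not be detected.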
